A study of Mus musculus with 2 samples.

Results

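The MHC class II genes are described here through 7 members: H2-Aa, H2-Ab1 and H2-Eb1, which encode chains of the class II dimers, Cd74 (the invariant chain), H2-DMa and H2-DMb1 (the peptide-loading dimer) and Ciita (the class II transactivator). They were listed by symbol, were all found, and are 7 of the 32285 genes in the deposited counts. Single cells were from mouse bone marrow sorted as CD45.2+ and Kit+, 10 weeks after transplantation, stained with barcoded antibodies and prepared with 10x Genomics 3′ chemistry. One library was a control and the other carried the label Utx-deleted (Utx, also called Kdm6a, is a demethylase of histone H3). The labels give no strain, allele, Cre driver, donor number, animal age, or meaning of the 2 hashtag antibodies. Each group being a single library, differences have no replicate check and were not tested. Intervals below are 95% intervals of counting error only.

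Class II molecules present peptides from the endosomal route to CD4 T cells and are displayed mainly by dendritic cells, B cells and macrophages. An alpha and a beta chain assemble on the invariant chain, which blocks the groove and directs the complex to endosomes. There the invariant chain is degraded and the DM dimer exchanges its last fragment for peptides. Transcription of the chain genes, Cd74 and the DM genes depends on promoter X and Y boxes bound by RFX, CREB and NF-Y factors, which recruit the transactivator CIITA.

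RefSeq promoter windows of 300 bases matched 4 of the 7 members. The stretches below (RefSeq, build GRCm38.p6) are shown because H2-Aa and H2-Eb1 had the most alike levels over cell classes. Both lie upstream of the annotated gene, and capitals mark the motif matches. The first capitals in H2-Aa are an X2 (CRE) match, those in H2-Eb1 an X1 match, and the last capitals in each are the Y box core ATTGG.
H2-Aa, chr17:34287859-34287909, minus strand: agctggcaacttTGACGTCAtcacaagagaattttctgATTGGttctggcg
H2-Eb1, chr17:34305767-34305820, plus strand: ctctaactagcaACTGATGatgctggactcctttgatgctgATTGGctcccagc
Searched on both strands of 32851 promoter windows of that length, TGACGTCA occurred in 1.79%, the X1 letters ACNGATG in 9.85%, and ATTGG in 37.4%. The X1 letters followed on the gene's strand by ATTGG under 40 bases on occurred in 52 windows (0.158%), and H2-Eb1 and H2-DMb1 were among them with 22 and 23 bases between the motifs. In H2-Aa, 18 bases separated TGACGTCA from ATTGG. Neither window of H2-DMa held that pair. A match is a description of letters, not of factor binding.

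On GRCm38, 5 of the members lie on chromosome 17: H2-DMa (34119541 to 34139101, plus strand), H2-DMb1 (34153072 to 34160230, plus), H2-Ab1 (34257689 to 34269419, plus), H2-Aa (34282744 to 34287823, minus) and H2-Eb1 (34305867 to 34316674, plus). Ciita lies on chromosome 16 (10480059 to 10528418, plus) and Cd74 on chromosome 18 (60803848 to 60812652, plus). No other gene's exons on either strand overlapped the last 500 transcript bases, where 3′ reads fall, except 12 bases in Cd74.

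Deposited barcodes numbered 7827 in the control and 7883 in the library labelled Utx-deleted, with 122130256 and 129736034 gene UMIs (unique molecular identifiers, 1 per captured transcript molecule), and 17 barcode sequences were in both. After filters 7098 and 6970 cells were kept, with medians of 12450.5 and 11363 UMIs. Maturing neutrophils, set by their granule genes, were 73.6% and 75.5% of them. Their median CD117 (Kit) tag was 19 and 11, against 186.5 and 201 in stem or progenitor cells, so most of the sorted cells had a low tag. Kdm6a was at 111 and 104 CPM (UMIs per 1000000 UMIs), so the gene was not depleted. 3′ counting does not show a missing internal exon, so this does not check the label. Across all kept cells 7.85% of genes with at least 50 UMIs were past 2-fold between the libraries.

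Cell classes were set by marker UMIs in each cell, with no class II gene among the markers, and their names stand for those marker gates. Of the conventional dendritic panel, 7 of 7 and 6 of 7 genes were detected in the cells named for it, at 1025 and 1727 CPM in all. The monocyte panel was at 1698 and 1818 CPM in the same cells, against 1595 and 5352 in the monocytes low in azurophil granule transcripts. The classes held 27 and 28 dendritic cells, 85 and 40 B-lineage cells, 369 and 706 monocytes, and 370 and 95 stem or progenitor cells. Their makeup differed. The dendritic class had 21 conventional and 6 plasmacytoid cells in the control, and 28 conventional and 0 plasmacytoid cells in the other library. The B class had 65 early (Vpreb1, Igll1, Rag1, Dntt) and 11 mature (Ms4a1, Ighd, Fcer2a, Cr2) cells in the control, against 14 early and 13 mature cells. These classes are small, and each level over a class moves with such makeup, so the members' levels are given in subsets beside the whole. In a class total, fewer positive cells and less RNA per cell cannot be told apart, and the counts of positive cells are therefore given too.

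The 7 genes fell into 2 patterns of spread over cells. H2-Aa, H2-Eb1, Cd74 and Ciita were held by few cells. H2-Aa was detected in 147 control cells and 100 cells of the other library, and 90% of its UMIs came from 25 and 29 cells. For H2-Eb1 those cells numbered 23 and 28, for Cd74 30 and 33, and for Ciita 34 and 27. Dendritic cells held 80.3% and 73.9% of all H2-Aa UMIs.
H2-DMa and H2-DMb1 were spread widely. H2-DMa was detected in 1693 and 1400 cells, and 1286 and 1094 cells were needed for 90% of its UMIs. H2-DMb1 needed 751 and 873 cells. Dendritic cells held 3.78% and 8.68% of H2-DMa UMIs, while monocytes held 26.5% and 38.2%.
H2-Ab1 lay between these patterns. Dendritic cells held 55.1% and 57.4% of its UMIs, yet it was detected in 826 and 687 cells, and 525 and 334 cells were needed for 90%.

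**Figure D1:**
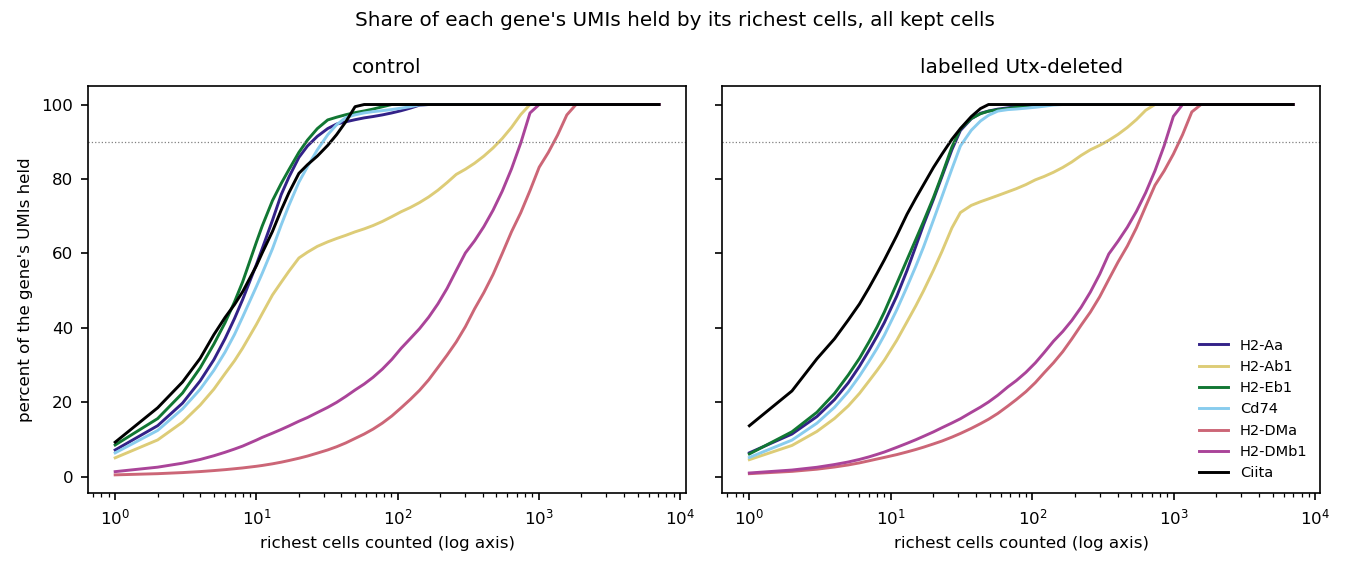
Cumulative percent of each gene's UMIs (vertical axis) against the number of its richest cells counted (horizontal log axis), for all kept cells of each library; the dotted line is 90%. H2-Aa, H2-Eb1, Cd74 and Ciita reach it within 34 cells in both libraries, while H2-Ab1 needs 525 and 334 cells and H2-DMa 1286 and 1094.

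In neutrophil classes the broad H2-Ab1 signal came with few UMIs of its partner chain. H2-Ab1 pairs with H2-Aa to form the I-A dimer. In conventional dendritic cells there were 0.834 and 0.743 H2-Ab1 UMIs per H2-Aa UMI, and in mature B cells 0.657 and 0.664. In neutrophil progenitors (Elane, Prtn3, Ctsg, Mpo) there were 37.9 and 69.2. Those progenitors had H2-Ab1 in 185 of 470 and 226 of 529 cells, and H2-Aa in 7 and 5 cells. Maturing neutrophils gave 3.88 and 4.65 H2-Ab1 UMIs per H2-Aa UMI. Both ratios in neutrophil classes were above the dendritic one in each library. In stem cells there were 3.70 and 1.52, and 24 of 130 and 8 of 30 cells with H2-Ab1 also had H2-Aa. Of the control cells with H2-Ab1, 10.4% also had H2-Aa, and 9.90% did in the other library.

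Maturing neutrophils served as the background for detection, since they are not known for class II. H2-Aa was in 0.498% and 0.380% of them (26 and 20 UMIs, 0.429 and 0.325 CPM), at median depths of 9746.5 and 9598 UMIs. Cd74 was in 0.746% and 1.05%, and Ciita in 2 cells of each library. H2-Ab1 was in 95 of 5226 and 79 of 5259 of them, and H2-Eb1 in 0.210% and 0.551%. H2-DMa was in 6.14% and 5.44%, and H2-DMb1 in 3.33% and 4.07%. Thinned to 2000 UMIs, H2-Ab1 was in 0.137% and 0.211% of maturing neutrophils, 3.45% and 4.22% of neutrophil progenitors, 6.49% and 4.21% of stem or progenitor cells, and 12.3% and 7.14% of early B cells.

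Among conventional dendritic cells, mature B cells and low-azurophil monocytes, the levels of H2-Aa, H2-Eb1 and Ciita fell in that order in both libraries, with stem cells below all 3. The H2-Aa intervals of these neighbours did not overlap, but in low-azurophil monocytes H2-Aa was in 6 of 34 and 4 of 24 cells (17.6% and 16.7%, near the share of stem cells), and 1 cell held 69% of it in the library labelled Utx-deleted. Ciita intervals of mature B cells and low-azurophil monocytes overlapped in the library labelled Utx-deleted (21.3 to 126 and 9.93 to 41.2, on 6 and 9 UMIs). H2-DMa was at 355 and 604 CPM in conventional dendritic cells. Its next classes in the control were mature B at 335 and low-azurophil monocytes at 154, and in the other library they were low-azurophil monocytes at 118 and mature B at 106. H2-DMa intervals of those neighbours overlapped in the second library (87.5 to 156 and 53.0 to 190), and conventional dendritic and mature B intervals overlapped in the control (299 to 419 and 195 to 536).

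**Figure D2:**
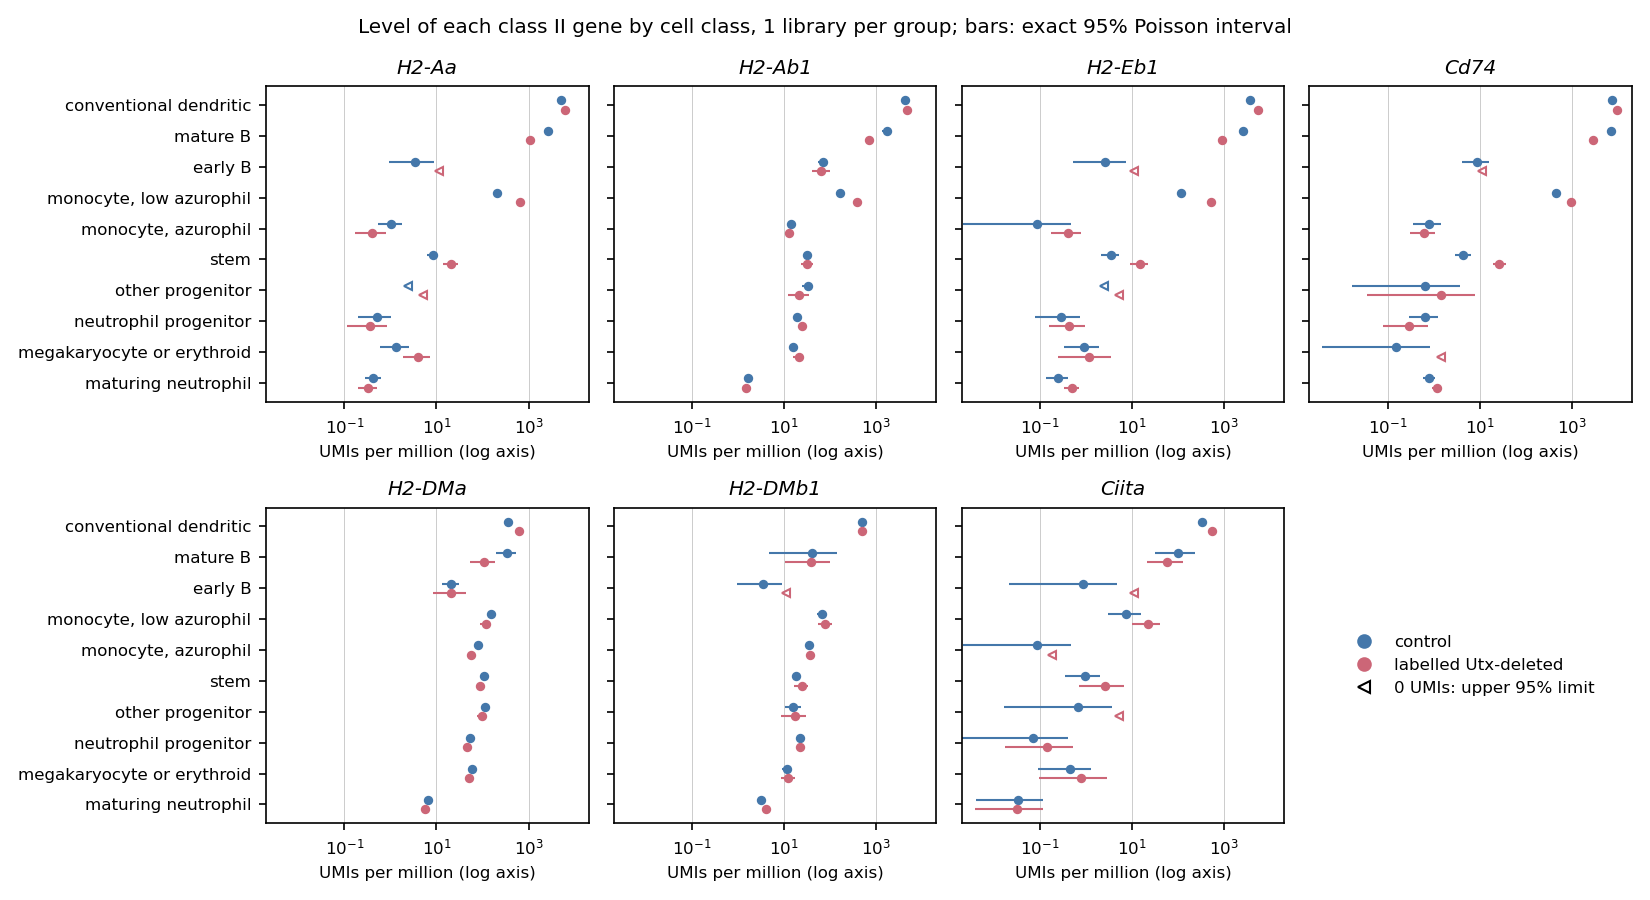
Level of each gene in CPM (log axis) in 10 cell classes of the control and of the library labelled Utx-deleted, 1 library each; bars are exact 95% Poisson intervals and open triangles the upper limit where no UMI was found. H2-Aa, H2-Eb1 and Ciita are highest in conventional dendritic cells, while H2-DMa keeps a level of 45.8 or more in neutrophil progenitors of both libraries.

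Conventional dendritic cells carried class II at high levels in both libraries. The set of 7 genes came to 21470 CPM in the control and 27160 in the library labelled Utx-deleted, a log2 ratio of 0.34 (0.30 to 0.38). Without 2 control cells that had more plasmacytoid than conventional panel UMIs (the other library had 0 such cells) it was 0.16 (0.12 to 0.20). H2-Aa was found in 18 of 21 and 25 of 28 cells. Its UMIs per cell had a median of 106 (0 to 177) in the control and a maximum of 236 in the other library, with a median of 99. The median cell had 29760 CPM of the 7 genes (37.1 to 58130) in the control and 30380 (215 to 53120) in the other library, so the cells overlapped over most of their range.
Among chain genes, H2-Aa was at 5007 (4790 to 5232) and 6198 (5968 to 6435) CPM, a log2 ratio of 0.31. H2-Ab1 was at 4174 and 4605 (0.14), and H2-Eb1, the I-E beta chain, at 3692 and 5293 (0.52). Without those 2 cells the ratios were 0.13, -0.04 and 0.34, so the direction of H2-Ab1 did not hold.
Cd74 was at 7423 (7157 to 7696) and 9441 (9157 to 9733) CPM, a log2 ratio of 0.35, which was 0.17 without those cells. The DM genes split: H2-DMa was at 355 and 604 (log2 0.76, 0.47 to 1.07), while H2-DMb1 was at 491 and 486 (log2 -0.02, -0.30 to 0.27). Without those cells they were 0.60 and -0.19. Of the 50-base windows in the last 500 bases of the H2-DMb1 transcript, 20.4% were shared with its paralogue H2-DMb2. How reads in shared windows were counted was not examined.
Ciita, the regulator of the set, was at 327 (274 to 389) and 536 (470 to 609) CPM, a log2 ratio of 0.71, or 0.53 without those cells. In hashtag 1 cells it was at 342 and 333 CPM, and in hashtag 2 cells at 296 and 684, so the difference lay in hashtag 2. It was detected in 18 of 21 and 25 of 28 cells, the same counts of cells as H2-Aa, and 1 cell of the library labelled Utx-deleted held 38 of its 236 UMIs. None of the 7 genes was past 2-fold, against 8.33% of all genes with at least 50 UMIs in these cells.

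The whole dendritic class, which includes plasmacytoid cells in the control, gave larger ratios: its log2 ratio for the 7 genes was 0.83 (0.79 to 0.87), and 3 of the 7 genes were past 2-fold, against 13.9% of all genes. They were H2-Eb1 (1.01), H2-DMa (1.13) and Ciita (1.19). None of the 3 was past it in cells thinned to 2000 UMIs (0.38, 0.051 and 0.66), in hashtag 1 cells (0.43, 0.84 and -0.029) or with possible doublets kept (0.94, 0.99 and 0.79). With stricter gates H2-Eb1 (0.70) and Ciita (0.92) were not, nor was H2-Eb1 with a stricter cell filter (0.95). The 6 plasmacytoid cells, all in the control and all of hashtag 2, had 0 UMIs of H2-Aa, H2-Eb1 and Cd74, which allows up to 18.6 CPM for each gene. They had 3 H2-Ab1 UMIs and 13 H2-DMa UMIs. Of the plasmacytoid panel, 4 of 6 genes were detected in these 6 cells, at 496 CPM in all. Other panels were higher in them: early B at 1284 CPM, stem or progenitor at 732 and neutrophil progenitor at 1718. Their name thus stands for the gate only, and their values are not read as those of plasmacytoid dendritic cells at large.
The conventional dendritic cells without H2-Aa had 5 to 10 UMIs of the conventional panel, near the gate of 5. Of the 3 such control cells, 2 had more UMIs of the plasmacytoid panel, 30 and 40, and the other had 207 UMIs of the monocyte panel. The 3 such cells of the other library had 0 or 1 plasmacytoid UMIs, and 1 of them had 8 Cd74 UMIs. Every one of these 6 cells had H2-DMa.
The class ratio also varied with the hashtag, at 0.33 in hashtag 1 cells and 1.49 in hashtag 2 cells. The hashtag 2 value holds those 6 plasmacytoid cells, and hashtag 2 conventional cells alone were at 22350 and 27620 CPM.

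Both kinds of conventional dendritic cell carried the set. Cells with more Xcr1 and Clec9a (type 1 markers) numbered 16 and 20, and cells with more Cd209a and Clec10a (type 2 markers) 5 and 7. H2-Eb1 was at 2885 (2707 to 3071) and 4843 (4620 to 5075) CPM in the first kind, and at 8382 (7655 to 9158) and 8173 (7475 to 8918) in the second. H2-Aa was at 4376 and 5717 in the first and at 8673 and 9743 in the second. The control levels include the 2 cells with more plasmacytoid than conventional panel UMIs, which had 0 UMIs of both genes. Type 2 cells were higher for both genes in both libraries. As gated, H2-Eb1 intervals of the libraries lay apart in type 1 cells and overlapped in type 2 cells. Yet H2-Eb1 was in 4 of 5 control type 2 cells, against 7 of 7. The cell without it was 1 of the 2 with more plasmacytoid UMIs, and the other was of type 1. Levels by kind without these cells were not computed, so no difference between libraries is read within a kind. With 5 to 20 cells a kind, the difference between kinds was not tested.

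**Figure D3:**
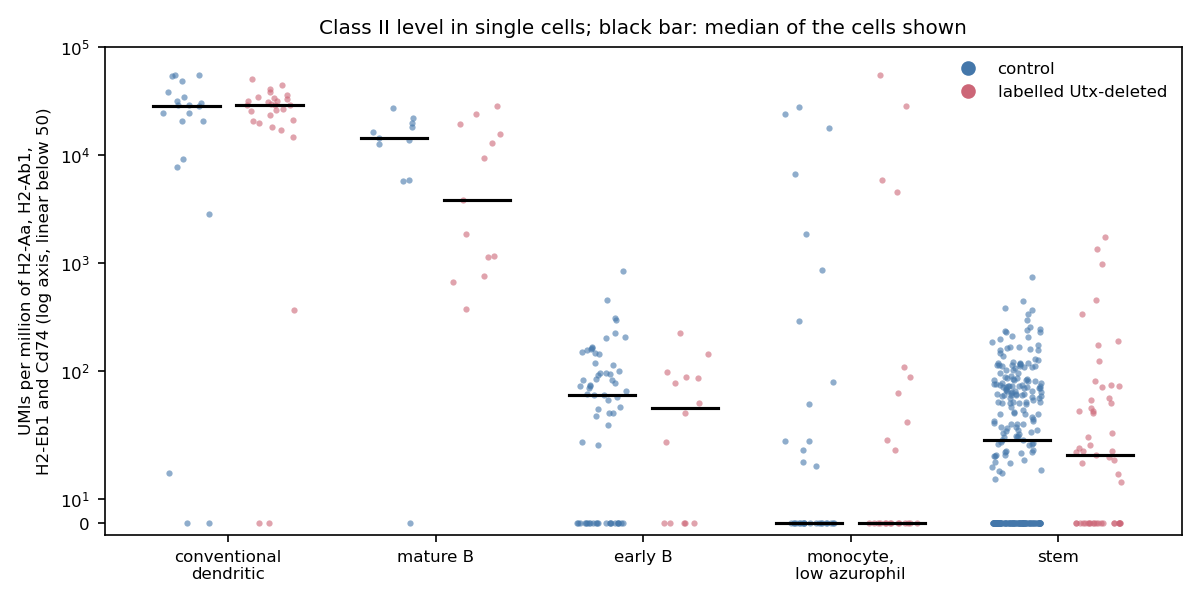
CPM of H2-Aa, H2-Ab1, H2-Eb1 and Cd74 in single cells (log axis, linear below 50) of 5 cell subsets; each point is 1 cell and black bars are medians. Conventional dendritic cells of both libraries have medians side by side, mature B cells of the library labelled Utx-deleted split into high and low cells, and 3 stem cells of that library lie at the top of their column.

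In the B lineage class II followed maturity. In early B cells H2-Ab1 was the main class II gene, with 80 UMIs in 41 of 65 control cells (68.6 CPM, 54.4 to 85.4) and 21 UMIs in 9 of 14 cells of the other library (63.6, 39.4 to 97.2). Its partner H2-Aa had 4 and 0 UMIs there, H2-Eb1 3 and 0, and Cd74 10 and 0. A count of 0 in the 14 early cells allows up to 9.08 CPM. H2-DMa was second to H2-Ab1, with 24 and 7 UMIs. Early B cells thus held H2-Ab1 in most cells with few UMIs of its partner chain, in both libraries.
Summed over the subset, mature B cells held every chain gene, but not in each cell: H2-Eb1 was in 9 of 11 and 7 of 13. In the control 10 of 11 had H2-Aa, with a median of 14 UMIs (0 to 21), and the 7 genes came to 14300 CPM. In the library labelled Utx-deleted 10 of 13 had H2-Aa, with a median of 4 UMIs and a maximum of 33, and the 7 genes came to 5658. H2-Aa was at 2580 and 1062 CPM, H2-Ab1 at 1694 and 705, H2-Eb1 at 2521 and 898, and Cd74 at 7032 and 2790. The log2 ratios were -1.28, -1.26, -1.49 and -1.33, and 4 of the 4 members with at least 50 UMIs were past 2-fold, against 21.9% of the 442 genes with as many UMIs.
The low cells were mainly of one hashtag: the 7 genes came to 16100 and 13130 CPM in hashtag 1 cells, and to 12950 and 2544 in hashtag 2 cells. The 5 hashtag 1 cells of the library labelled Utx-deleted had a median of 19470 CPM of the 4 abundant genes, against 16390 in the 5 control cells of that hashtag. The 8 hashtag 2 cells had a median of 1146 (372 to 15680), against 13460 in 6 control cells. Those 8 cells also had a median depth of 8706 UMIs, against 3826 to 4676 in the other 3 groups, and a median of 14 UMIs of mature markers. The part of depth or of cell stage in their level was not tested.
H2-DMa in mature B cells was at 335 and 106 CPM on 17 and 11 UMIs, and H2-DMb1 had 2 and 4 UMIs. Ciita had 5 and 6 UMIs.

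The whole B class ran the other way. Its log2 ratio for the 7 genes was 1.26 (1.14 to 1.39), and H2-Aa (1.47), H2-Ab1 (1.35), H2-Eb1 (1.18) and Cd74 (1.26) were past 2-fold, 4 of the 5 members with at least 50 UMIs, against 4.32% of all genes. Early cells, which have little class II, were 65 of 85 control cells but 14 of 40 cells of the other library, and the sum of the 7 was -0.31 in early and -1.34 in mature cells. The direction of the class total did not hold within these subsets. In the 9 and 13 B cells of neither subset the 7 genes came to 2979 (2609 to 3388) and 5623 (5085 to 6203) CPM on 233 and 399 UMIs, a log2 ratio of 0.91. The plasma cell panel was at 42770 and 13910 CPM in those cells, and its part was not tested. One of them in the library labelled Utx-deleted held 358 of those 399 UMIs, and of the 1013 of the class. Without the richest cell of each library the ratio was -1.01 in these cells, on 133 and 41 UMIs, and 0.85 in the class.

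Most monocytes held few UMIs of the chains and more of the DM genes. Most carried azurophil granule transcripts: 335 of 369 control cells and 682 of 706 cells of the other library. In those, H2-Aa was at 1.03 and 0.399 CPM on 12 and 8 UMIs, H2-Eb1 had 1 and 8 UMIs, and Cd74 had 9 and 12. H2-Ab1 was at 14.0 and 12.7 CPM, and H2-DMb1 at 34.2 (30.9 to 37.7) and 35.6 (33.1 to 38.3).
Of the 3 members with at least 50 UMIs there, H2-DMa was the one whose ratio interval lay apart from 0, and the others had too few UMIs to compare. It was at 80.2 (75.1 to 85.5) CPM in the control and 55.8 (52.6 to 59.2) in the library labelled Utx-deleted, a log2 ratio of -0.52 (-0.65 to -0.40). Over all monocytes it was found in 90.5% and 74.8% of cells, at median depths of 33344 and 27807 UMIs. After thinning to 2000 UMIs the shares were 11.7% (8.56% to 15.4%) and 10.2% (8.06% to 12.7%), with intervals that overlapped. Thinning left 43 of 369 and 72 of 706 cells with a UMI, too few to show whether the shares differed at equal depth. In azurophil monocytes the level was lower in both hashtags, at 74.1 and 55.7 CPM in hashtag 1 and 86.2 and 55.9 in hashtag 2.
Class II-high monocytes were few, and all lay in the low-azurophil subset. In the control 5 of the 34 low-azurophil monocytes held at least 20 UMIs of the 4 abundant genes (22 to 294 UMIs), and in the other library 4 of 24 did (32 to 689). One cell with 689 such UMIs, 24 monocyte-panel and 7 conventional dendritic UMIs held 61.8% of the 7-gene UMIs of its subset in the library labelled Utx-deleted. The 7 genes came to 1156 and 2751 CPM in this subset, where 14.2% of all genes were past 2-fold.
Over all monocytes, 0 of the 6 members with at least 50 UMIs were past 2-fold, against 3.69% of all genes, and the log2 ratio of the sum was -0.37 (-0.45 to -0.30). It was 0.58 in hashtag 1 cells, which include that richest cell, and -0.99 in hashtag 2 cells.

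Stem or progenitor cells carried H2-DMa, H2-Ab1 and H2-DMb1. H2-DMa was found in 327 of 370 control cells and 79 of 95 cells of the other library, at 109 (102 to 116) and 89.97 (78.2 to 103) CPM, a log2 ratio of -0.27 (-0.50 to -0.06). H2-Ab1 was in 184 and 45 cells, at 31.2 and 28.6 CPM, and H2-DMb1 in 126 and 31 cells, at 19.0 and 20.9. Thinned to 2000 UMIs, H2-DMa was in 22.4% and 17.9% of these cells, against 1.23% and 1.04% of maturing neutrophils. H2-DMa in the stem or progenitor class of each library was higher in CPM than in its azurophil monocytes, with intervals that did not overlap.
Stem cells (Hlf, Mecom, Procr, Fgd5) also held traces of H2-Aa. It was in 41 of 264 control stem cells (15.5%, 11.4% to 20.5%) and 8 of 53 cells of the other library (15.1%, 6.75% to 27.6%). Cells with Flt3 that missed the stem gate had it in 4 of 31 (12.9%, 3.63% to 29.8%) and 0 of 4. Their 4 stem markers were at 119 and 84.75 CPM in all, against 1048 and 1352 in stem cells, so they were not free of them. It was in 0 of 75 and 0 of 38 other progenitors, which at their depth allows up to 4% and 7.89% of cells with a UMI, and in 1.49% and 0.945% of neutrophil progenitors. Median depths were 23286 and 28602 UMIs in stem cells, 18112 and 17096 in other progenitors, and 29116 and 24947 in neutrophil progenitors. In the control 31 of the 41 positive stem cells had a single UMI and the highest had 3, at 8.45 CPM (6.35 to 11.03) against 0.504 in neutrophil progenitors. After thinning it was in 4 of 264 and 2 of 53 stem cells, against 5 of 5107 and 2 of 5203 maturing neutrophils. H2-Eb1 was in 17 and 6 stem cells, and Cd74 in 19 and 6.
Marker panels of dendritic and B cells were detected in the stem cells, at lower levels than in dendritic and B cells. Of the conventional dendritic panel, 4 of 7 genes were detected in the control at 7.20 CPM in all, and 1 of 7 in the other library at 5.28, against 1025 and 1727 in conventional dendritic cells. Xcr1, Clec9a and Cd209a were at 0 in both libraries, as were Pax5, Cd79a and Ms4a1. Yet 5 of the 9 genes of the B panel were detected in control stem cells. They were at 23.0 CPM in all, against 13930 in control early B cells and 8.45 for H2-Aa in the same stem cells. The early B panel was at 84.5 and 1.98 CPM, against 4347 and 2774 in early B cells, and the mature B panel at 2.97 and 1.32, against 2383 and 1680 in mature B cells. Their part in the H2-Aa traces was not tested.

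Differences in stem cells rested on few cells. In the class, Cd74 was past 2-fold at 6.39 and 17.5 CPM (log2 1.46, 0.83 to 2.06), 1 of the 5 members with at least 50 UMIs, against 5.68% of all genes. In the stem subset H2-Aa (8.45 and 20.5, log2 1.30) and Cd74 (4.38 and 26.4, log2 2.58) were past 2-fold, 2 of the 5 members, against 5.84% of all genes. Of the 40 Cd74 UMIs of the library labelled Utx-deleted, all but 4 were in 3 cells with 20, 25 and 34 UMIs of the 4 abundant genes. These 3 cells had 63 to 213 UMIs of the stem or progenitor panel, 4 to 6 Kit UMIs and CD117 tags of 88, 158 and 183. They had 0 UMIs of the dendritic and monocyte panels and at most 1 B-panel UMI. Hashtag 2 cells held 37 of the 40 UMIs, these 3 cells among them. Without them Cd74 was at 2.75 CPM (0.75 to 7.05), and its log2 ratio was -0.40 (-2.64 to 0.84), while H2-Aa was at 6.19 (log2 -0.32, -1.65 to 0.58). No control stem cell had 20 such UMIs. The log2 ratio of the 7-gene sum in the class was 0.04 (-0.12 to 0.20).

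**Figure D4:**
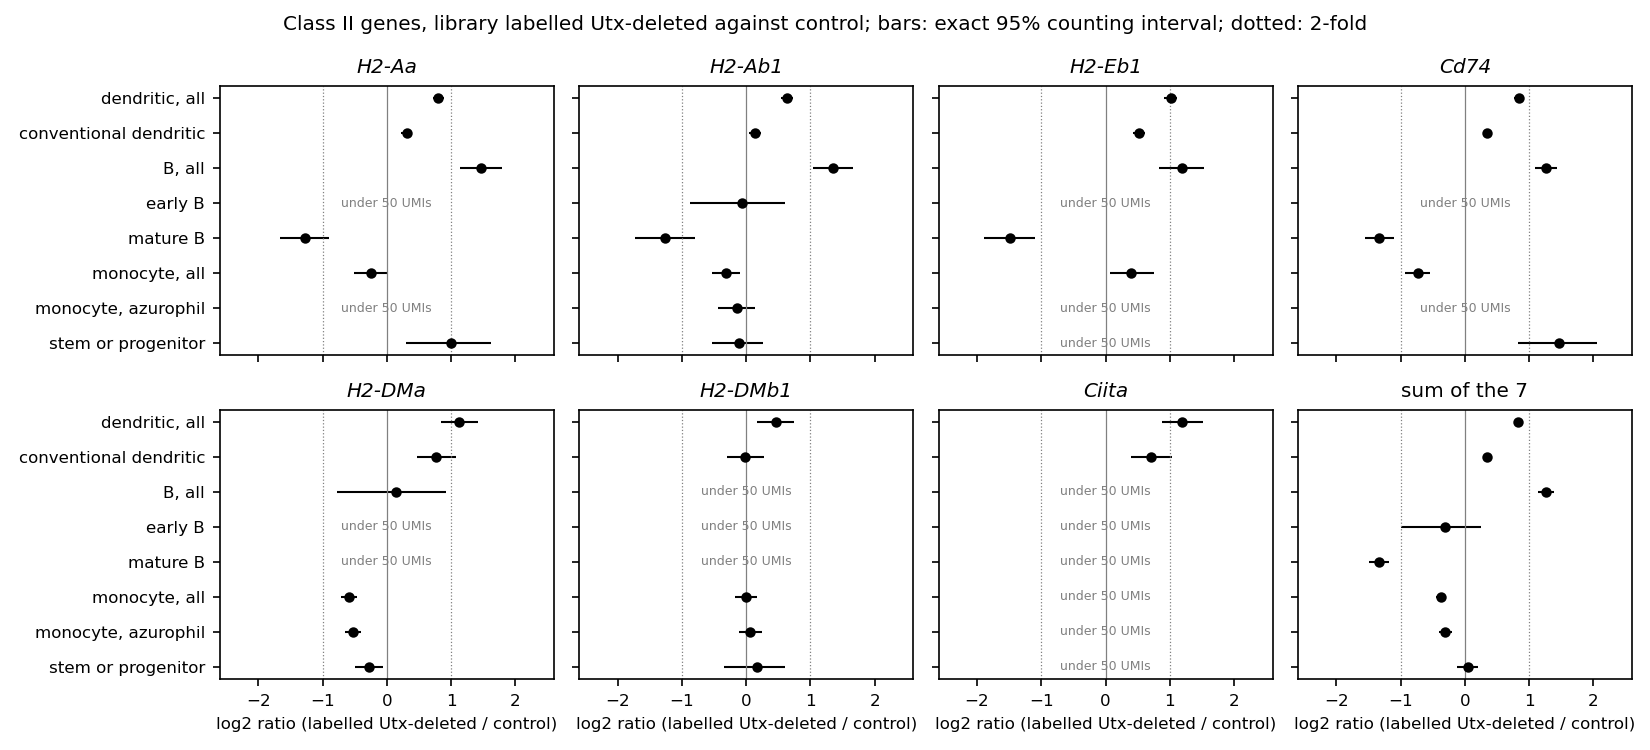
Log2 ratio of each gene and of the 7-gene sum, library labelled Utx-deleted over control, in 8 cell classes or subsets; bars are exact 95% counting intervals, dotted lines mark 2-fold, and classes with under 50 UMIs of a gene are marked so and not drawn. The 4 abundant genes lie above 0 in the whole B class and below 0 in mature B cells, and H2-DMa lies below 0 in monocytes and stem or progenitor cells but above 0 in dendritic cells.

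Cells with at least 20 UMIs of the 4 abundant genes numbered 40 in the control and 48 in the other library, 0.564% and 0.689% of kept cells. Of these, 18 and 25 were dendritic, 13 and 9 B-lineage, 5 and 4 monocytes and 1 and 3 stem or progenitor cells. The rest were 1 control plasma cell, 2 cells of the other library that met no gate, and 2 and 5 cells with lineage and neutrophil markers. Such mixed cells, which entered no class, held 0.525% and 9.28% of H2-Aa UMIs and 2.28% and 10.5% of Cd74 UMIs. A Kit UMI was present in 24 and 26 of the 40 and 48 cells, and in 18 of 18 and 17 of 25 of the dendritic ones. The median CD117 tag of the 40 and 48 cells was 21.5 and 33. That median was 158 for the 3 stem cells and 38 for the 25 dendritic cells of the library labelled Utx-deleted.

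Other genes of the class II pathway were read from a list of 10, of which 9 were in the files. In conventional dendritic cells 6 had at least 20 UMIs, 6 of the 6 were above 0 with a median log2 ratio of 0.81, and 1 was past 2-fold. Over all genes with as many UMIs the median was -0.13 and 12.6% were past 2-fold. The conventional dendritic panel was itself at 1025 and 1727 CPM in these cells. List ratios were not computed without the 2 control cells of more plasmacytoid panel UMIs. The gene past 2-fold was H2-DMb2, a second DM beta chain, at 27.7 and 138 CPM (11 and 61 UMIs, log2 2.22), with the overlap with H2-DMb1 given above. H2-Oa and H2-Ob, chains of the DO dimer that inhibits DM, were at 65.5 and 125 and at 75.6 and 148 CPM. In the whole dendritic class 4 of 6 were past 2-fold, against 17.0% of all genes: H2-Oa (1.39), H2-Ob (1.30), H2-DMb2 (2.71) and March1 (1.21), a ligase that marks surface class II for degradation. In B cells 1 of 6 was, Ifi30 (1.60), a lysosomal thiol reductase, against 7.99% of all genes. It was not past it in early (0.35) or mature (0.63) B cells. In mature B cells 3 of 5 list genes were lower past 2-fold, against 27.4% of all genes in either direction: H2-Ob (-1.47), Ctss (-1.19) and March1 (-2.07). In early B cells 1 of 4 was lower, Lgmn (-1.47), against 7.93%.
In monocytes 4 of 8 genes were lower past 2-fold, with a median of -0.83, against 5.85% of all genes past it in either direction: H2-Oa (-1.08), H2-Ob (-1.74), H2-DMb2 (-1.43) and Lgmn (-1.81), an endosomal protease. All 4 were below 4 CPM. In azurophil monocytes 3 of 7 were lower, against 5.35% of all genes: H2-Ob (-1.53), H2-DMb2 (-1.48) and Ctss (-1.04). The low-azurophil subset, which holds the class II-high monocytes, ran the other way. There 3 of 4 were higher and 0 lower, against 17.9%: Ctss (2.08), Ifi30 (1.69) and March1 (3.33). The makeup of this subset differed too, with the monocyte panel at 1595 and 5352 CPM. Its stem or progenitor panel was at 1111 and 393 CPM and its neutrophil progenitor panel at 2914 and 1764, and their part was not tested. In stem or progenitor cells 1 of 5 was lower past 2-fold, against 8.23% of all genes in either direction. It was Ctss (-1.62), which degrades the invariant chain. In the stem subset 3 of 5 were lower, against 8.51%: H2-Oa (-1.62), H2-Ob (-1.89) and Ctss (-2.32).
Of 13 genes of class II transcription, 11 had enough UMIs in dendritic cells, with a median log2 ratio of 0.01. Only Nfyb (-1.18), an NF-Y subunit, was past 2-fold, against 17.0% of all genes. In the whole B class 0 of 11 were past it and in monocytes 0 of 13, against 7.99% and 5.85%. In mature B cells 1 of 2 was lower, Irf8 (-1.03), against 27.4%, and its interval (-2.21 to 0.15) held 0. In low-azurophil monocytes 1 of 12 was higher, Ifngr1 (1.32), against 17.9%. In stem or progenitor cells 3 of 13 were lower, against that share of 8.23%: Irf8 (47.2 and 8.10 CPM, -2.47), Irf1 (-1.04) and Ifngr2 (-1.83), with a list median of -0.12. In the stem subset they were at -3.47, -1.15 and -1.43. Panels of other cell types were also lower in that subset, the early B panel at 84.5 and 1.98 CPM and the monocyte panel at 62.9 and 23.1. Their part was not tested.
Among 5 co-stimulatory genes, 3 had enough UMIs in conventional dendritic cells. Of these, 2 were higher past 2-fold, Cd86 (93.2 and 216 CPM, log2 1.19) and Cd83 (1.20), against 12.6% of all genes. In B cells 1 of 1 was higher, Cd83 (1.95), against 7.99%, with 0 UMIs in early cells and -0.33 in mature cells. Cd86 was lower in monocytes (-2.17, 1 of 2 genes, against 5.85%), on 24 and 8 UMIs. Its ratio was -2.78 in azurophil monocytes (15 and 3 UMIs) and 0.43 in low-azurophil ones (9 and 5 UMIs). Cd86 was also lower in stem or progenitor cells (-1.67, 1 of 1, against 8.23%), on 34 and 2 UMIs. In the stem subset its interval held 0 (-1.29, -4.94 to 0.15). Of 9 class I genes, 0 were past 2-fold in any of the 4 classes (Psmb8 was at -1.11 in low-azurophil monocytes), with medians of 0.38 in dendritic, -0.28 in B, -0.35 in monocyte and -0.44 in stem or progenitor cells, against 17.0%, 7.99%, 5.85% and 8.23% of all genes past it and medians of -0.155, 0.04, -0.01 and 0.02. Over all kept cells 1 of 5 co-stimulatory genes was lower past 2-fold, Cd80 (7.42 and 1.08 CPM, log2 -2.77). In the pathway list 2 of 8 were, H2-Ob (-1.28) and Lgmn (-1.04). The share over all genes there was 9.75% in either direction. These lists were not tested.

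Likeness of pattern was measured over 22 points, 11 cell subsets in each of the libraries, which share library and depth. Among the members, H2-Aa and H2-Eb1 had a Pearson correlation of 0.99 on log2(CPM + 1), and Cd74 and H2-Eb1 one of 0.99. H2-DMa and H2-DMb1 had 0.86 with each other, and 0.71 to 0.83 with the chains, Cd74 and Ciita. The gene outside the set with the pattern most like the mean of the 7, among 12451 genes, was Cd86 (0.92), a co-stimulatory ligand, followed by Ifi30 (0.92), Cyp27a1, Spag9, Plekhm3, Kmo, Irf5, Cd36, Btla and Phf11b (0.88).
Ifi30 was at 348 and 395 CPM in conventional dendritic cells, 217 and 357 in mature B cells, and 7.93 and 3.04 in maturing neutrophils. Btla, an inhibitory receptor, was at 320 and 499 in conventional dendritic cells, 630 and 521 in mature B cells, and 1.71 and 0 in early B cells.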

How the data were processed

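Both libraries were deposited as raw UMI counts per feature and barcode. Per the submitters' processing notes, the authors used Cell Ranger 7.1.0 and build mm10; the annotation, the strand setting of counting and the cell-calling rule are not given in the sources used here. In GENCODE M21, 32235 gene identifiers of the files were found. The members, classes and lists were chosen with earlier results of these data known.

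With Python 3.11.15, numpy 2.4.6, scipy 1.17.1 and pandas 2.3.3, barcodes with at least 500 genes and under 10% mitochondrial UMIs passed (349 and 214 did not). Barcodes with at least 100 UMIs of both hashtags and under 5 times more of one were left out (380 and 699). A lineage needed at least 5 UMIs from 2 markers, a monocyte 10 from 3, and a stem or progenitor cell 5 from 3. Maturing neutrophils had at least 1% of UMIs, and azurophil cells at least 0.5%, in those markers. Cells with lineage and neutrophil markers (84 and 101) or markers of several lineages (23 and 6) entered no class. No doublet caller was run, and doublets of 1 hashtag remain. Gates were set after seeing gate counts, but not members' values. Early and mature B cells needed 5 and 3 UMIs, and stem cells 3, from 2 markers.

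Counts were summed per class and divided by the class total, times 1000000 (CPM). Log2 ratios had 1 UMI added to each sum. Intervals are exact Poisson for levels, exact Clopper-Pearson for shares and exact conditional binomial for ratios. A count of 0 is bounded by 3 counts. Past 2-fold needed 50 UMIs over both libraries (20 for lists). Named genes were all members, list genes past 2-fold and the 10 genes of most like pattern. The fold rule was tested on simulated data.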

Additional observations from a re-analysis of the deposited data

How the results depend on the processing

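No paired analysis was possible because each group is 1 library. The subset, richest-cell and 20-UMI alternatives were chosen after seeing the data. For dendritic cells, the log2 ratio of the 7-gene sum (0.83) was 0.54 with stricter and 0.99 with looser gates, 0.77 with a stricter cell filter, 0.76 with possible doublets kept, 0.36 thinned to 2000 UMIs, 0.90 without the 50 most abundant genes in the total, 0.98 with TMM scaling, 0.33 in hashtag 1, 1.49 in hashtag 2, 0.90 without the richest cell, 0.34 in conventional cells and 0.16 without those of more plasmacytoid panel UMIs. It stayed above 0 in each of these. For B-lineage cells (1.26) it was 1.08 with doublets, 0.61 thinned, 1.94 in hashtag 1, 0.85 without the richest cell and 0.91 in cells of neither subset, and it turned to -0.061 in hashtag 2, -0.31 in early, -1.34 in mature cells, and -1.01 in cells of neither subset without the richest (Cd74 there at -1.25). For monocytes (-0.37) it was -0.67 and -0.56 with stricter and looser gates, -0.50 with doublets, -0.46 thinned, -0.99 in hashtag 2, -0.54 without the richest cell, and 0.58 in hashtag 1. For stem or progenitor cells (0.04) it was -0.20 in hashtag 1, 0.27 in stem cells and -0.24 without cells of at least 20 UMIs. Causes were not tested.

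Single genes also turned. In hashtag 2 B cells H2-Ab1 was at -0.088, H2-Eb1 at -0.34 and Cd74 at -0.011. In early B cells H2-Aa was at -0.50, H2-Ab1 at -0.060, H2-Eb1 at -0.18 and Cd74 at -1.64, and in mature B cells they were at -1.28, -1.26, -1.49 and -1.33. Ciita was at -0.029 in hashtag 1 dendritic cells. Cd74 in stem or progenitor cells was at -1.10 in hashtag 1 and -0.46 without cells of at least 20 UMIs.

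The difference in the share of cells with class II UMIs, in percentage points, was 11.1 in dendritic, 10.9 in B and -0.80 in monocyte cells when thinned. Requiring at least 3 UMIs from 2 genes, it was 22.6 in dendritic cells and -1.45 in monocytes. Genes past 2-fold numbered 1151, 664, 747 and 980 in dendritic, B, monocyte and stem or progenitor cells with a minimum of 20 UMIs, and 1312, 912, 1081 and 1447 past 1.5-fold, against 538, 244, 422 and 597. The dendritic and B values rest on 27 to 85 cells a class.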
